A study of Mus musculus with 6 samples.

Results

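The genes described here move fatty acids into heart muscle, carry them into mitochondria, oxidise them and hold them in lipid droplets. A list of 33 genes was set by name, and all 33 were rows of a table of 17447 gene symbols counted by RNA sequencing of mouse hearts. The genes were followed in the 3 hearts of sham-operated mice, called sham 1, sham 2 and sham 3. These wild type mice underwent ketamine and xylazine anaesthesia, opening of the abdomen and exposure of the kidneys, and no kidney tissue was removed. The series also holds 3 hearts from wild type mice with chronic kidney disease (CKD), made by subtotal (5/6) nephrectomy in 2 operations. All 6 samples carry the same batch label. The sources used here do not give strain, sex, age, time of collection or the part of the heart taken. Beyond replicate numbers nothing says that the samples are separate animals, so the spread between them may be technical.

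Long-chain fatty acids are the main fuel of the adult heart. They reach it in lipoproteins or bound to albumin, cross the capillary wall and the muscle membrane, and are joined to coenzyme A. The carnitine shuttle passes the acyl group across the mitochondrial membranes, and each turn of beta-oxidation then removes an acetyl unit through 4 reactions while electrons pass to the respiratory chain. Fatty acids not burned at once are kept as triglyceride in lipid droplets. Many of these genes are known targets of the PPAR and ERR nuclear receptors.

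The row labels were checked first. Under the labels of the 33 genes, the 3 sham columns ranked them alike, with Spearman correlations of 0.997 in each pair, and sham with CKD columns gave 0.322 to 0.371 over the same 33 rows. Over all 17447 rows, sham with CKD gave -0.0586 to -0.0528. Each of these is a correlation over genes within a pair of columns, and genes do not stand for replicates. The row of Lpl, lipoprotein lipase, had counts of 71598, 86511 and 93091 in the sham columns, against 331, 332 and 312 in the CKD columns. The row of Echs1, the short-chain enoyl-CoA hydratase, had 3710, 3938 and 4893 in the sham columns, against 0, 2 and 0. At 5 or fewer counts in every CKD column stood 8 of the 33 rows, and 0 of the 33 stood so low in any sham column. The share of all rows at such counts was not computed, so these 2 numbers have no background beside them. The median percentile of the 33 rows among all rows was 98.6 in sham and 68.3 in CKD. The labels of the CKD columns therefore did not match their values, no CKD value is read as the level of a gene, and no comparison of CKD with sham was made.

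**Figure D1:**
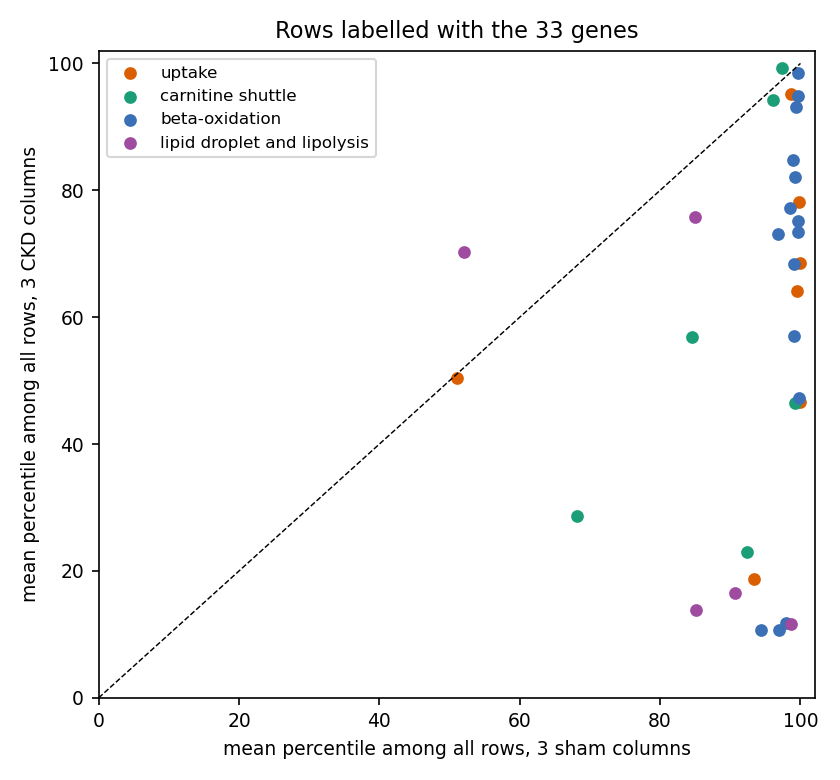
Mean percentile of each of the 33 rows among all rows of the table, in the 3 sham columns (horizontal axis) and in the 3 CKD columns (vertical axis), coloured by step. Most points lie at the right edge and are spread over the whole height, from percentile 10.6 to 99.3 in CKD.

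In the sham hearts the 33 genes together took 2.74%, 3.40% and 3.24% of all counts, a mean of 3.13% ± 0.342 (SD, n = 3). Column totals were 10480788, 10474487 and 12669724 counts. The share was lowest in sham 1 and close in sham 2 and sham 3. Uptake genes took 1.55% ± 0.164, beta-oxidation genes 1.34% ± 0.147, carnitine shuttle genes 0.161% ± 0.0201 and the lipid droplet, thioesterase and uncoupling genes 0.0798% ± 0.0111 (SD, n = 3 each). As CPM (the count divided by the column total, times 1000000), 6 genes averaged 10 to 100 and the other 27 averaged more. The single gene Lpl gave 23.9% of the counts of the 33, and the highest 2, Lpl and Fabp3, gave 37.2%. Genes are compared with each other below as CPM per kb of coding sequence, because a long transcript yields more reads.

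**Figure D2:**
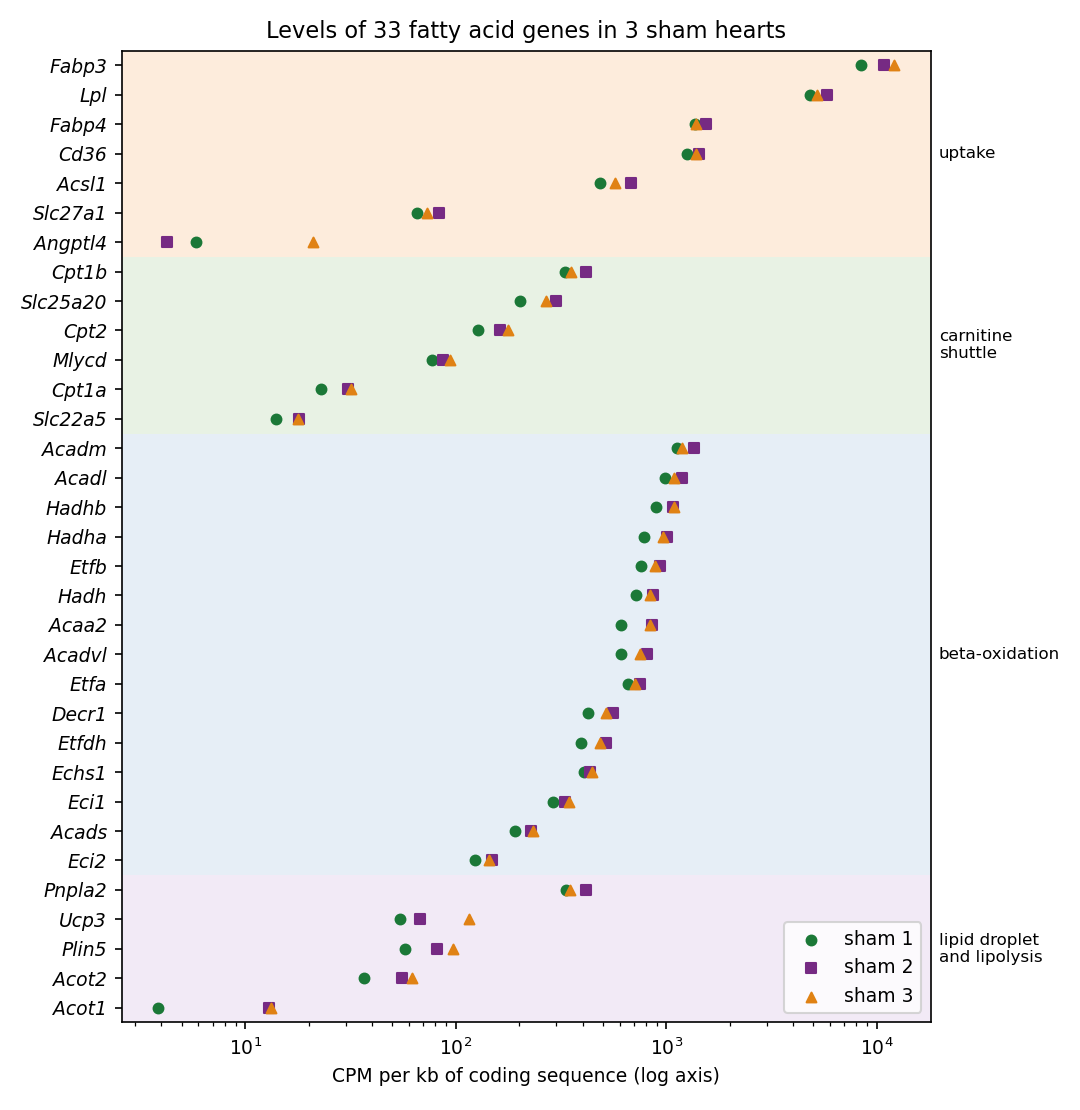
CPM per kb of coding sequence (log axis) of each of the 33 genes in sham 1, sham 2 and sham 3, grouped by step and ordered by mean within a step. Fabp3 and Lpl lie to the right of all others, and the beta-oxidation genes lie between, with means from 138.5 to 1222.

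Among the uptake genes, the fatty acid binding protein Fabp3 and the lipase Lpl stood above all other members. Fabp3, which carries fatty acids through the cytosol of muscle, gave 8362, 10780 and 12040 CPM per kb in sham 1, 2 and 3. Lpl, which frees fatty acids from circulating triglyceride at the capillary wall, gave 4804, 5808 and 5167. These values did not overlap with each other or with those of the next gene, Fabp4. Fabp4, the form known from fat cells, capillaries and macrophages, averaged 1432 ± 97.1 CPM per kb, and Cd36, the membrane transporter of fatty acids, 1358 ± 89.0 (SD, n = 3 each), with overlapping ranges. Acsl1, the acyl-CoA synthetase that traps fatty acids in the muscle cell, averaged 578 ± 97.4 CPM per kb. Slc27a1, the transport protein FATP1, was far lower at 73.9 ± 9.05.

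Angptl4, the secreted inhibitor of Lpl and a known target of PPARs, was the uptake gene with the lowest level and the widest spread. It gave 75, 55 and 327 counts, which is 7.16, 5.25 and 25.8 CPM. The 95% exact Poisson intervals, for counting error only, were 5.63 to 8.97, 3.96 to 6.83 and 23.1 to 28.8 CPM. Sham 3 lay outside the intervals of both others, at 3.61 times sham 1 and 4.92 times sham 2. Its mean of 12.7 CPM thus rests on sham 3. Lpl itself differed little over the same hearts, with 6831, 8259 and 7348 CPM. Gpihbp1, which anchors Lpl on capillary endothelium, gave 81.6, 84.7 and 67.3 CPM.

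In the carnitine shuttle the muscle form of the first enzyme was far above the liver form. Cpt1b, the muscle carnitine palmitoyltransferase of the outer mitochondrial membrane, gave 331, 417 and 354 CPM per kb, and the liver form Cpt1a gave 22.8, 30.7 and 31.96. Within each heart, Cpt1b made up 93.5%, 93.1% and 91.7% of both forms per kb, a mean of 92.8% ± 0.964 (SD, n = 3). The 95% exact binomial intervals of the unscaled share were 93.0% to 94.1%, 92.6% to 93.6% and 91.2% to 92.2%, for counting error only, so sham 3 lay below the others by more than counting error. The brain form Cpt1c took 0.294% ± 0.142 of the 3 forms. Slc25a20, the carrier that exchanges acylcarnitine for carnitine across the inner membrane, averaged 256 ± 49.2 CPM per kb. Cpt2, which returns the acyl group to coenzyme A in the matrix, averaged 155 ± 25.8.

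Cpt1b stood at 2.60 and 2.57 times Cpt2 per kb in sham 1 and sham 2 and at 1.99 times in sham 3. Cpt2 was highest in sham 3, with 251, 320 and 350 CPM, while Cpt1b was highest in sham 2, with 765, 965 and 819. Both were lowest in sham 1. Slc22a5, the carnitine importer OCTN2 of the cell membrane, was among the lowest members at 16.6 ± 2.25 CPM per kb. Mlycd, which breaks down malonyl-CoA, the inhibitor of CPT1, averaged 85.9 ± 8.40 CPM per kb. Acacb, the acetyl-CoA carboxylase that makes malonyl-CoA at the mitochondrion, averaged 68.6 CPM per kb and gave 429.9, 582 and 499 CPM. Crat, the acetyltransferase that makes acetylcarnitine, averaged 414 CPM per kb.

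The 15 beta-oxidation genes were the most even step. Of the acyl-CoA dehydrogenases, which start each turn, Acadm (medium chain) averaged 1222 ± 115 CPM per kb, Acadl (long chain) 1084 ± 98.0, Acadvl (very long chain) 721 ± 101 and Acads (short chain) 217 ± 22.9 (SD, n = 3 each). Acadm was above Acadl, Acadl above Acadvl and Acadvl above Acads in all 3 hearts. Acads did not overlap with the other dehydrogenases of the list, while the range of Acadm overlapped with that of Acadl. Per kb of whole transcript the first 3 were closer, at 754, 730.1 and 654 CPM per kb.

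The trifunctional protein, which carries out the last 3 reactions on long chains, is built from Hadha and Hadhb. Hadha gave 1798, 2296 and 2211 CPM and Hadhb 1274, 1529 and 1551. Both were lowest in sham 1. Per kb, Hadha stood at 0.879, 0.935 and 0.888 times Hadhb, so their ratio varied with a coefficient of variation (CV, the SD as a percentage of the mean) of 3.35%, where the genes alone varied by 12.7% and 10.6%. The 95% intervals of the ratio of their counts, from exact binomial intervals and for counting error only, were 1.38 to 1.44, 1.47 to 1.53 and 1.40 to 1.45, so sham 2 lay above both others. Relative to the other beta-oxidation genes the CV was as small, 2.63% for Hadha and 2.84% for Hadhb. Etfa and Etfb encode the electron transfer flavoprotein that takes electrons from the dehydrogenases. Their ratio per kb was 0.864, 0.804 and 0.796, a CV of 4.55%, where the genes varied by 6.47% and 10.3%. Etfdh, the oxidoreductase that passes those electrons on to ubiquinone, averaged 465 ± 63.8 CPM per kb.

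Hadha and Hadhb lie head to head in the genome, and the RefSeq windows place 272 bases between their start sites. The 250 bases before the Hadhb start, chr5:30155003-30155252 on the plus strand of GRCm38.p6, lie in that gap, upstream of both genes. They are shown because they belong to both subunits of the complex. Capitals mark GGGCGG, the GC box bound by SP factors, at 90 and 25 bases before the start.
Hadhb upstream: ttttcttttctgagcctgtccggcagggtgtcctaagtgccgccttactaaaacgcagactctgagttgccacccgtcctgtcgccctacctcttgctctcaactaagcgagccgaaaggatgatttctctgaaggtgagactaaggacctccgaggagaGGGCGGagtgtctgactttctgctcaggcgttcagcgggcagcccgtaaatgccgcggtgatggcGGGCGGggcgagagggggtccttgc
The files' own build is mm9, so no position of the counts is taken from this window.

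Promoter windows of the RefSeq table were used for 27 of the 33 genes, as 31 windows. None was used for Cpt1b, Acaa2, Decr1, Lpl, Angptl4 and Fabp4. Member windows on 1 chromosome were left out, a limit not put on the set of all windows. Which of the genes without a window were lost by this was not recorded. The 250 upstream bases were searched on both strands. GGGCGG was present in 20 of the 31 windows (64.5%) and in 32.7% of all 32851 windows of that length, and CCAAT in 14 (45.2%) and 33.8%. TATAAA, the TATA box, was present in 0 of 31 and in 12.4% of all windows. AGGTCA, the half-site bound by PPARs, ERRs and other nuclear receptors, was present in 7 of 31 (22.6%), those of Acadm, Acadvl, Cd36, Cpt1a, Echs1, Plin5 and Ucp3, and in 14.0% of all. Direct repeats of AGGTCA with any 1 base between the copies, which also count as AGGTCA, were found in 0 of 31 and in 0.0335% of all. A match is a string of letters and not a shown binding site. The upstream bases of Acadm and Ucp3 are printed as examples, the first an abundant dehydrogenase and the second the member with 2 half-sites, with AGGTCA or its reverse complement in capitals. That of Acadm is chr3:153944644-153944893 on the minus strand, and that of Ucp3 is chr7:100472741-100472990 on the plus strand, both in GRCm38.p6.
Acadm upstream: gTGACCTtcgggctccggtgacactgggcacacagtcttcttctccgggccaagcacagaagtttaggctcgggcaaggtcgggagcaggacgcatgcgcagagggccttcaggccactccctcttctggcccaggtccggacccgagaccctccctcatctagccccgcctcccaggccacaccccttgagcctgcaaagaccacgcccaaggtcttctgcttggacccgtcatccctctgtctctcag
Ucp3 upstream: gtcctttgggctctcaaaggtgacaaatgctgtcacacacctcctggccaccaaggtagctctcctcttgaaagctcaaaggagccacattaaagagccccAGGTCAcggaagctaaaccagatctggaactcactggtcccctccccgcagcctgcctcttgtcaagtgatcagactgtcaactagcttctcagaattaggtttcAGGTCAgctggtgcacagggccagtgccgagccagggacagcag
In Acadm the match begins 249 bases before the start, and in Ucp3 the matches begin 149 and 44 bases before it.

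The remaining enzymes of the spiral ranged from 138.5 to 807 CPM per kb. Hadh, the 3-hydroxyacyl-CoA dehydrogenase for shorter chains, averaged 807 ± 79.4, the thiolase Acaa2 767 ± 137 and the hydratase Echs1 428 ± 18.9 (SD, n = 3 each). Acaa2 was the least even of the step over the 3 hearts, with 727, 1022 and 993 CPM, and Echs1 the most even, with 354, 376 and 386 CPM. Among the enzymes that prepare unsaturated chains, the dienoyl-CoA reductase Decr1 averaged 499 ± 67.8 CPM per kb and the isomerase Eci1 320.4 ± 28.7. The second isomerase, Eci2, averaged 138.5 ± 13.2 CPM per kb, and Eci1 made up 70.0%, 69.0% and 70.5% of both forms per kb.

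The last group holds the lipid droplet genes Plin5 and Pnpla2, the thioesterases Acot1 and Acot2 and the uncoupling protein Ucp3. Pnpla2, the adipose triglyceride lipase ATGL that starts triglyceride breakdown, was the highest at 366 ± 44.9 CPM per kb, with 485, 608 and 506 CPM. Plin5, which coats droplets in oxidative tissue and binds ATGL and its activator, gave 79.9, 113 and 135 CPM. Ucp3, an inner membrane carrier of muscle mitochondria, gave 50.1, 62.6 and 107 CPM, in sham 3 1.70 times sham 2 and 2.13 times sham 1. Unlike Pnpla2, which was highest in sham 2, both Plin5 and Ucp3 were highest in sham 3. Abhd5, the activator of ATGL, gave 64.2, 62.2 and 71.8 CPM, and G0s2, its inhibitor, 29.4, 37.1 and 51.2. Lipe, the hormone-sensitive lipase, gave 66.9, 70.9 and 84.8.

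Acot1 (cytosol) and Acot2 (mitochondria) are neighbouring paralogs that cleave acyl-CoA back to free fatty acid. Acot1 and Angptl4 were the lowest of the 33 genes per kb, with overlapping ranges and an order that depended on the length used. Acot1 gave 51, 170 and 210 counts, or 4.87, 16.2 and 16.6 CPM. The 95% exact Poisson interval of sham 1, 3.62 to 6.40 CPM, did not reach those of sham 2 (13.9 to 18.9) or sham 3 (14.4 to 19.0). Acot2 gave 524, 787 and 1063 counts, and in CPM both were lowest in sham 1, Acot1 by the larger factor (3.37 against 1.59, mean of sham 2 and 3 over sham 1). Acot1 made up 9.52% of both per kb in sham 1, 18.9% in sham 2 and 17.6% in sham 3. The best local alignment of their transcripts was 93.8% identical over 1337 aligned positions, and 33.6% of the 50-base windows of Acot1 were found in transcripts of another gene, mostly Acot2. How the counting treated such reads is not known, so the split between both is uncertain.

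Within families, the listed member was the leading form in most cases. A family here holds only the genes on the lists used that were found among the rows, which need not be all of its genes. Per kb, Acsl1 made up 93.7% ± 1.48 of the 5 long-chain acyl-CoA synthetases, Fabp3 87.2% ± 1.87 of the 6 fatty acid binding proteins and Slc27a1 79.7% ± 1.78 of the 6 transport proteins, followed by Slc27a4 with 19.0% ± 1.23 (SD, n = 3 each). Fabp4 followed Fabp3 with 12.2% ± 1.83, while Fabp1 (liver) and Fabp2 (intestine) had no counts in any of the 3 hearts, where a count of 0 is compatible with at most 0.286 CPM. The share of Fabp3 of Fabp3 plus Fabp4 was 86.0%, 87.5% and 89.7%.

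Among perilipins and thioesterases another gene led, and among uncoupling proteins the order was not stable. Plin3 made up 44.9% ± 5.64 of the 5 perilipins per kb and Plin5 21.6% ± 3.88, with Plin4 at 17.8% ± 2.08 and Plin2 at 15.4% ± 1.74. Per kb of whole transcript Plin3 and Plin5 were close, at 29.2% and 27.7%. Ucp2, the widely expressed form, made up 66.4%, 47.7% and 44.5% and Ucp3 33.6%, 52.3% and 55.5% of the uncoupling proteins per kb, and Ucp1, the brown fat form, gave 0 counts. Which of Ucp2 and Ucp3 was higher thus differed between hearts, and per kb of whole transcript Ucp3 averaged the larger share, 59.6%. Acot13, a small mitochondrial thioesterase, made up 76.7% ± 1.52 of the 10 acyl-CoA thioesterases that were listed and found, and Acot2 6.33% ± 1.47.

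**Figure D3:**
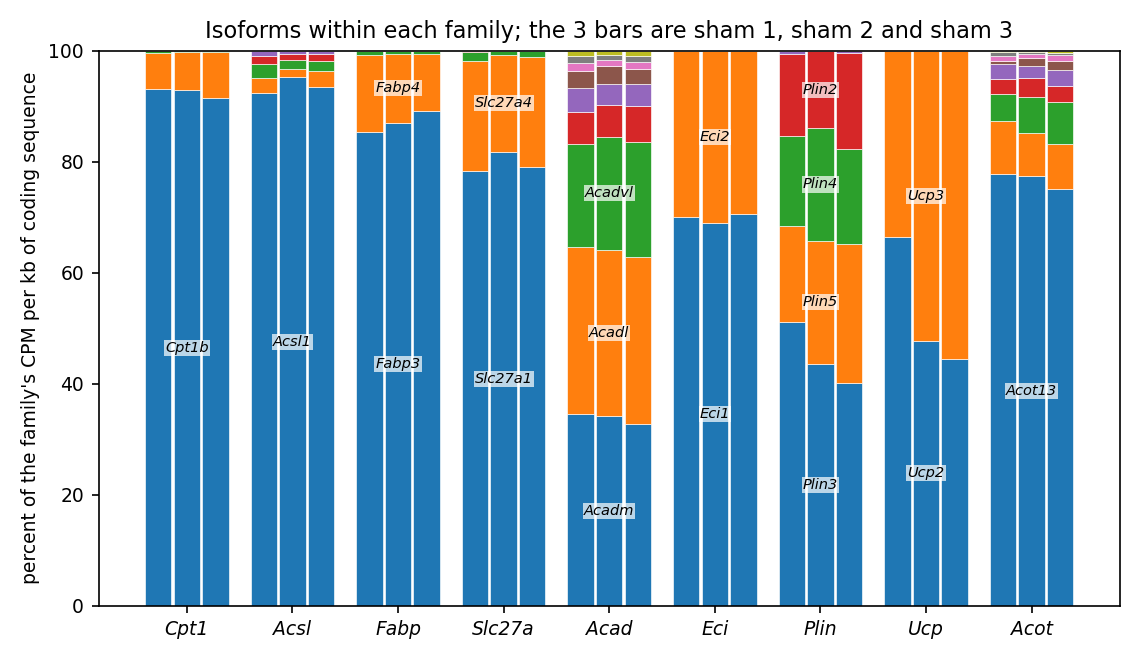
Share of each isoform in its family's CPM per kb of coding sequence (vertical axis, percent), with a bar each for sham 1, sham 2 and sham 3 in that order. Acot1 and Acot2 are among the thin segments of the last family. Cpt1b, Acsl1, Fabp3 and Slc27a1 fill most of their bars, and the share of Ucp3 differs between hearts.

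Ordered by CPM per kb, neighbouring genes were mostly close. Of 32 neighbouring pairs, 25 had overlapping ranges over the 3 hearts, and in 23 the order was the same in all 3. Ranges did not overlap between Fabp3 and Lpl, Lpl and Fabp4, Acads and Cpt2, Eci2 and Mlycd, Slc27a1 and Acot2, Acot2 and Cpt1a, or Cpt1a and Slc22a5. Per kb of whole transcript, 28 of the 33 genes kept their place within 3 positions. The exceptions included Fabp4, which went from place 3 to 8, and Cd36, from 4 to 10.

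The members moved together between the sham hearts. In CPM, 32 of the 33 genes were lowest in sham 1, where 28.2% of all 8864 genes with at least 10 CPM were lowest, and the one exception, Angptl4, was lowest in sham 2 (1 of 33, against 45.6% of all genes). None of the 33 was lowest in sham 3 (26.2% of all genes). The highest value lay in sham 2 for 20 genes (23.5% of all genes), in sham 3 for 13 (39.6%) and in sham 1 for 0 (36.9%). The choice between sham 2 and sham 3 depended on scaling, for the 33 genes as for all genes. With edgeR's TMM 26 were highest in sham 2 (41.2% of all genes) and 7 in sham 3 (29.8%). Scaled to cardiomyocyte markers, 8 were highest in sham 2 (8.06% of all genes) and 25 in sham 3 (49.1%). All 6 shuttle genes and all 15 beta-oxidation genes were lowest in sham 1. For the 32 genes, the mean of sham 2 and sham 3 was 1.08 to 3.37 times sham 1, with a median of 1.21 times. The median log2 difference over the 33 genes was 0.32 for sham 2 minus sham 1 and 0.28 for sham 3 minus sham 1, where the medians over all genes were -0.06 and 0.01. These counts describe 3 hearts under the same label, and no test within the group was made.

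**Figure D4:**
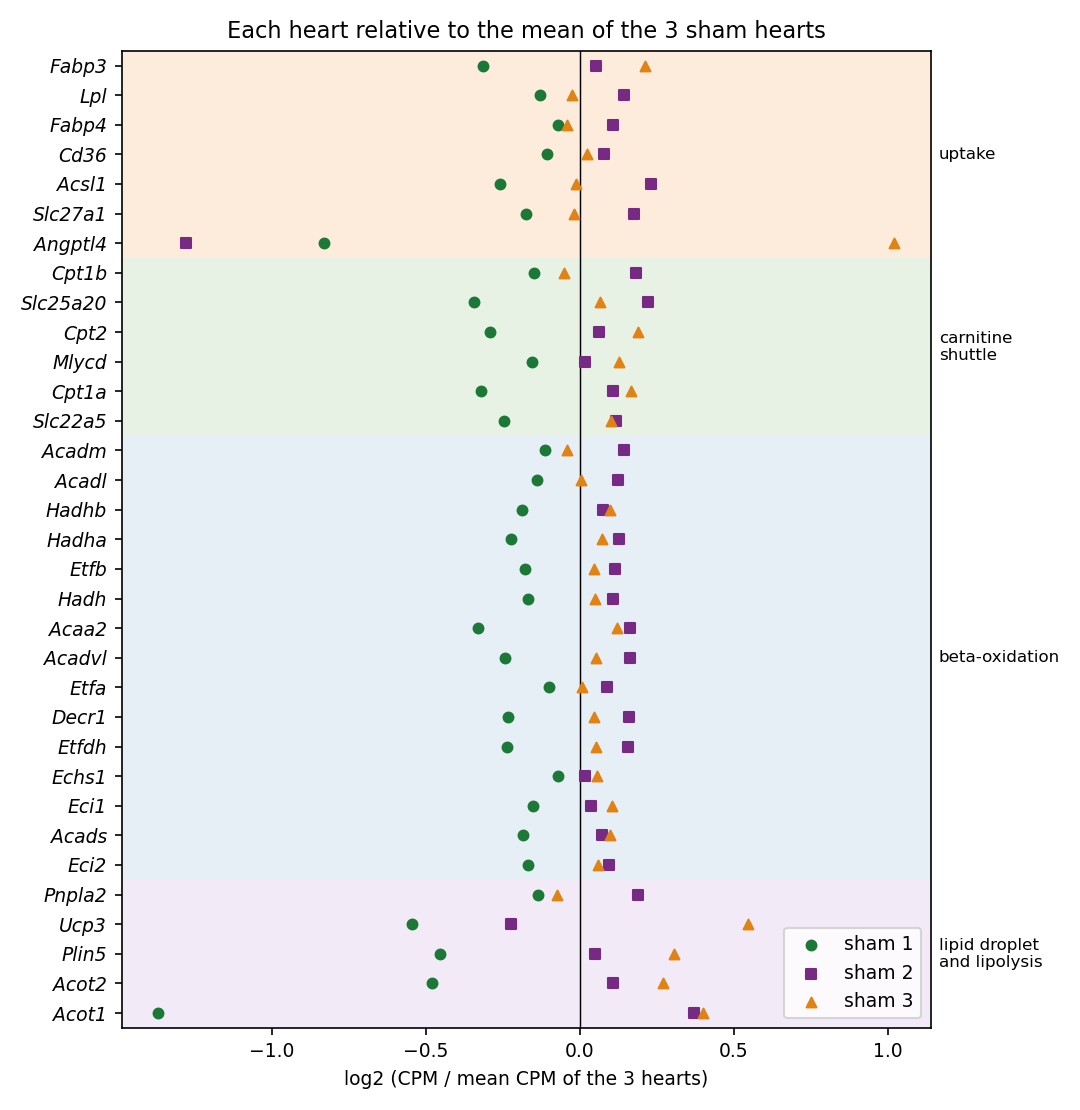
The log2 ratio of each heart's CPM to the mean of the 3 sham hearts (horizontal axis) for the 33 genes, grouped by step. Green circles (sham 1) lie left of the other hearts in every gene except Angptl4, and Angptl4, Ucp3, Plin5 and Acot2 have orange triangles (sham 3) at the right.

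**Figure D5:**
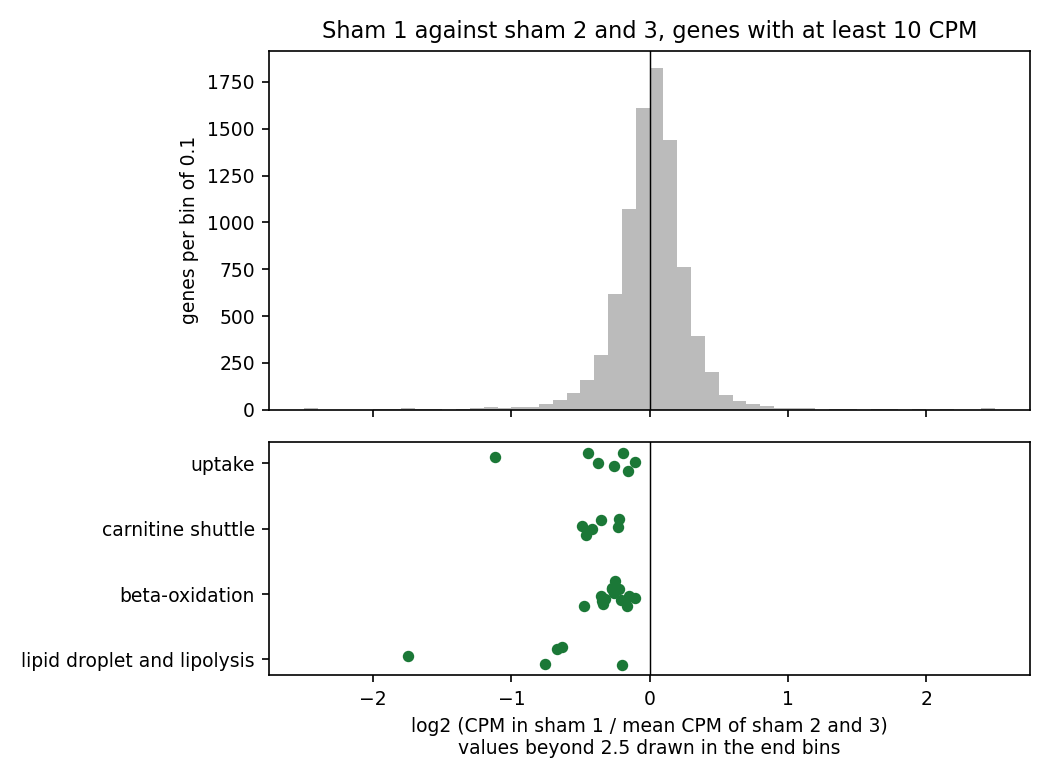
Upper panel, number of genes (vertical axis) by log2 ratio of CPM in sham 1 to the mean of sham 2 and sham 3, for all 8864 genes with at least 10 CPM. Lower panel, the 33 genes on the same axis by step, all left of 0.

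In CPM, the members varied somewhat more than all genes with at least 10 CPM, and the direction depended on scaling and filter. With TMM the median CVs of members and all genes were 16.1% and 9.57%, and with cardiomyocyte marker scaling 10.8% and 11.4%. In CPM, the median over all genes was 11.8% with at least 1 CPM and 15.7% with at least 1 count. The median CV over the 33 genes was 12.3%, against 9.32% over all genes with at least 10 CPM, and 6 of the 33 were below the latter. A CV of at least 30% was found in 3 of 33, Angptl4 (89.2%), Acot1 (53.1%) and Ucp3 (40.7%), and in 5.86% of all genes. The CV that counting alone gives was largest for Acot1, at 8.38%, and under 5% for 30 of the 33. Without sham 1 the median CV over the 33 fell to 5.52%, against 7.91% over all genes, and 24 of the 33 were then below it.

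Relative to the other beta-oxidation genes of the same heart (their geometric mean), the median CV of the 15 beta-oxidation genes was 3.81% in place of 10.3%. That of the 6 shuttle genes was 7.57% in place of 15.1%. All of these genes were lowest in sham 1, which by itself tends to lower the relative CV, and no genes outside the list are set beside them. The smallest relative CVs, of Etfb (0.501%), Hadh (0.732%) and Eci2 (1.09%), lay below the CVs that counting alone gives these genes (1.17%, 1.09% and 2.35%), so their order carries no information. Angptl4, Acot1 and Ucp3 stayed apart, at 85.0%, 47.5% and 36.1%. The CV was larger relative to the other beta-oxidation genes than in CPM for Fabp4 and Echs1, which differed least between sham 1 and the other hearts.

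The heart order was also read for genes outside the list and for cell type markers. Of 81 further genes of fatty acid handling 79 were found, 55 with at least 10 CPM. Of these 55, 28 were lowest in sham 1, 10 in sham 2 and 17 in sham 3. Of all genes with at least 10 CPM, 28.2%, 45.6% and 26.2% were lowest in those hearts. The triglyceride synthesis genes did not share an order. Dgat2 (330, 482 and 353 CPM), Gpam (188, 304 and 298), Agpat2 and Agpat3 were among the 28. Dgat1 and Agpat1 were lowest in sham 3 and Lpin1 in sham 2. The receptor gene Ppara (102.3, 134 and 97.6) was not among the 28 either. Of 10 cardiomyocyte markers 4 were lowest in sham 1 (28.2% of all genes) and 6 in sham 3 (26.2%). In sham 2, 9 of the 10 were highest (23.5% of all genes), and 0 were highest in sham 3 (39.6%). The summed level of the 10 was 110500, 121200 and 109400 CPM. All 5 atrial markers were highest in sham 1 (36.9% of all genes), with a summed level of 2423 CPM there, 68.6 in sham 2 and 449 in sham 3. In these bulk samples fewer cells of a type and less RNA per cell cannot be told apart, and the part of atrial tissue in the low values of sham 1 was not tested. Scaled to the geometric mean of the 10 cardiomyocyte markers instead of the column total, 31 of the 33 genes were lowest in sham 1, where 16.8% of all genes were lowest under that scaling.

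Lpl, Fabp4, Cd36 and Pnpla2 are also abundant in fat, so fat cell markers were read beside them. The 8 fat cell markers, which include Fabp4 itself, summed to 626, 683 and 653 CPM, and 6 of the 8 averaged at least 1 CPM. Adipoq, the adiponectin gene, gave 30, 2 and 27 counts, Cidec 36, 1 and 27 and Plin1 28, 4 and 28, all with their lowest count in sham 2. Fabp4 was highest in that heart, with 539.9, 611 and 550.1 CPM. Cfd gave 94, 6 and 138 counts. Retn (12, 1 and 9 counts) and Lep (0, 0 and 2) averaged under 1 CPM. Of 4 brown fat markers, which summed to 141, 229 and 152 CPM, Ucp1 and Elovl3 gave 0 counts in each heart. The others, Cidea (228, 316 and 380 counts) and Ppargc1a (1251, 2087 and 1546 counts), were lowest in sham 1 in counts and in CPM. In CPM, 28.2% of all genes with at least 10 CPM were lowest there. The 10 endothelial markers had a summed level of 1568, 1296 and 1650 CPM. Of the 10, 9 were lowest in sham 2, as were 45.6% of all genes with at least 10 CPM. The 8 macrophage markers, all lowest in sham 2 and highest in sham 3 (39.6% of all genes), summed to 587, 465 and 749 CPM. The 7 fibroblast markers, all lowest in sham 2 (45.6% of all genes), summed to 1952, 1015 and 2252 CPM. The 8 skeletal muscle markers summed to 2788, 3063 and 2827 CPM, nearly all from Ckm, the muscle creatine kinase that heart muscle also expresses. Of the other skeletal muscle markers, Myh1, Myh2 and Myh4 gave 0 counts in each heart, and Tnni2, Tnnt3, Mylpf and Actn3 gave between 3 and 24 counts in each. The part of these cell types in the levels of the 33 genes was not tested.

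For 20 of the 33 genes no 50-base window of the reference transcript was found in a transcript of another gene. At least 50% of windows were shared by Cpt1b (93.0%), Etfb (67.3%) and Hadhb (62.4%). For Cpt1b and Etfb the other gene was an annotated gene that shares exons with it on the same strand, and neither of those 2 symbols is a row of the table. Hadhb shared its windows mostly with Gm13910, which is not among the genes whose exons overlap a member. How the counting treated such reads is not known, which also limits the ratio of Hadha to Hadhb. The binding protein gene Fabp3 shared 29.2%, mostly with a pseudogene, and the importer Slc22a5 27.1%, mostly with its paralog Slc22a21. Exons of 5 members overlapped a coding gene of the table on the other strand: Acadvl, Echs1, Etfdh, Fabp3 and Hadha. The sources used here do not say whether the counting used strand, and without it reads of such partners cannot then be told apart.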

How the data were processed

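Total RNA of heart tissue was sequenced in 6 libraries, 3 sham and 3 CKD, with 1 batch label per the labels. The submitters' processing notes name mm9 as the build and HISAT2, HTSeq, Trimmomatic and DESeq as tools; their versions, settings, strand use and gene annotation were not given there or in other sources. The authors deposited whole-number raw counts, 1 row for each gene symbol and 1 column for each heart. Columns were matched to samples by name.

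CPM is the count divided by the column total, times 1000000. Coding and transcript lengths came from GENCODE vM21 (GRCm38), from the transcript with the longest coding sequence, and were used for lengths, shared sequence and overlaps only. No group test was made, since the CKD labels did not match their values. Means, SDs, CVs and ratios were computed in Python 3.11.15 with numpy 2.4.6, pandas 2.3.3 and scipy 1.17.1, and checked on simulated data. Alternatives used edgeR 4.0.16 (TMM) and DESeq2 1.42.0 (size factors) in R 4.3.3. All 33 genes were to be described, and other genes named only from lists of pathway genes and markers. The members and lists were chosen with earlier results of these data known. Depth of 10474487 to 12669724 counts in the sham columns means that a count of 0 allows up to 3 counts, 0.237 to 0.286 CPM.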

Additional observations from a re-analysis of the deposited data

How the results depend on the processing

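No paired analysis was possible because the result comes from no test: levels were read in the sham hearts alone and the CKD columns could not be used. The CPM of each of the 33 genes moved by less than its SD with TMM and DESeq2 size factors, as did the shares of counts by step. With 3 hearts, dropping any one shifts a mean by less than its SD by construction, so those settings say nothing about stability. The number of genes lowest in sham 1 was 32 with TMM (34.8% of all genes), 32 with DESeq2 size factors (34.4%) and 31 with cardiomyocyte marker scaling (16.8%), which, with per-kb-of-transcript scaling, was chosen after seeing the data. The filter on low values cannot change this count; with at least 1 CPM 27.5%, and with at least 1 count 25.3%, of all genes were lowest in sham 1.

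Which of sham 2 and sham 3 was higher depended on scaling. The number highest in sham 3 was 13 (39.6% of all genes), and 7 with TMM (29.8%), 6 with DESeq2 size factors (28.3%) and 25 with cardiomyocyte markers (49.1%), where 8 were highest in sham 2 (8.06%) and 2 lowest in sham 2 (69.8%); the shares of all genes moved in the same direction as the counts highest in sham 3. That last scaling moved the median log2 difference of all genes to -0.18 for sham 2 minus sham 1 and 0.20 for sham 3 minus sham 2. Without sham 1, 13 of 33 genes (39.4%) were higher in sham 3 than in sham 2, against 61.7% of all genes. The number of members below the median CV of all genes was 6, and 1 with TMM, 1 with DESeq2 size factors, 21 with cardiomyocyte markers, 14 against genes with at least 1 CPM and 22 against genes with at least 1 count. Leaving out 1 heart gave a median CV of 5.51% to 16.3%, the lowest without sham 1.

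Ratios depended on the length used. Without length scaling Hadha to Hadhb was 1.45, Etfa to Etfb 1.07 and Cpt1b to Cpt2 2.80, and per kb of transcript the first 2 were 0.737 and 0.688. The share of Cpt1b was 95.04% per kb of transcript. Over rows with at least 10 CPM in sham, the mean Spearman correlation of sham with CKD columns was 0.0128, against -0.0555 over all rows. Depth limits Acot1 and Angptl4 most, at 51 and 55 counts in their lowest heart.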

Other observations

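The genes in this paragraph were chosen after the values of the members had been seen. Pdk4, the pyruvate dehydrogenase kinase that spares glucose when fatty acids are used, gave 536.2, 334 and 738 CPM in sham 1, 2 and 3. Like Angptl4 it was lowest in sham 2 (45.6% of all genes) and highest in sham 3 (39.6%), at 2.21 times sham 2. Among the regulators of these genes, the coactivator Ppargc1a gave 119, 199 and 122 CPM and the receptor Esrra 138, 169 and 144. Both were lowest in sham 1 (28.2% of all genes with at least 10 CPM) and highest in sham 2 (23.5%). The receptor Esrrg gave 68.2, 77.0 and 61.6 CPM and was lowest in sham 3 (26.2% of all genes). Fgf21, a hormone gene induced by PPARs in liver, gave 0, 0 and 2 counts.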
